A study of Rattus norvegicus with 4 samples.

Results

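The cytosolic ribosomal protein genes were the 54 genes, of 18957 gene entries in all, whose symbol in the deposited tables is that of a protein of the cytosolic ribosome: Rps or Rpl with a number, the stalk proteins Rplp0 and Rplp2, and no kinase of the S6 family. They comprised 18 small subunit and 36 large subunit genes. Of the 54, 5 are paralogs by a symbol that ends in l or in l and a digit (Rpl22l1, Rpl39l, Rpl3l, Rpl7l1 and Rps27l2). The choice used symbols alone and no measured value. In the 4 libraries 46 members were listed every time and 8 were at 0 at least once. There were 38 members with at least 50 counts in their highest library and 24 with at least 500 counts in every library, while 16 stayed under 50 counts throughout. Averaged over the 4 libraries, 44 members reached 10 counts.

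Sprague Dawley rats, an outbred stock, gave the tissue, which was skin of the hindlimb footpad, in a study of radiation dermatitis, an injury of the skin seen after radiotherapy. The day 0, day 3, day 6 and day 9 groups had 1 library each. By the protocol in the labels, 10 Gy was given 4 times, on days 1, 2, 4 and 5, from a 9 MeV electron beam at 500 cGy/min, so that the day 3 skin followed 2 irradiations and the day 6 and day 9 skin 4. The descriptions of single samples differ from this: they name day 1 for the day 0 skin, and 1 irradiation day each for the later ones (day 2, day 4 and day 5). The labels do not say whether a library holds 1 animal or several, nor their sex or age. Each value below therefore compares single libraries, no spread between animals could be measured, and no test across animals was made. The 4 libraries held 1952921 to 1982608 gene counts, which is 56.92 to 60.59% of the tags seen at least 2 times.

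Ribosomal proteins are the protein part of the ribosome. The small subunit decodes the messenger RNA and the large subunit forms the peptide bond. Their messenger RNAs are among the most plentiful of most cells, are made in step with ribosomal RNA, and carry a terminal oligopyrimidine (TOP) start through which growth signals set their translation. Several of the free proteins can bind MDM2, the ligase that keeps p53 low, which is one route by which disturbed ribosome production reaches the p53 response. Skin renews its epidermis constantly, and both growth and protein synthesis are high in its basal layer.

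The assay counts a transcript through a 21-base tag that starts at a CATG site, ideally the site closest to the 3′ end. A member's count is the sum of the tags that the authors placed under it. The most counted tags of 6 members on which the results below turn are shown as the authors listed them, with the CATG site in capitals.
Rps13: CATGgtgtggcacaggtccgt
Rps19: CATGaccaagatctacggagg
Rps27: CATGcacaaacggtagtcttg
Rps26: CATGgaaaaataaaactgaag
Rpl11: CATGcgctggttccagcagaa
Rpl3l: CATGggcccccaaaagaaaca
For the 24 members with at least 500 counts in every library, the most counted tag held at least 94.9% of the count, and it lay at the site closest to the 3′ end in 14 of them and at the first or second site in 20. Among the other 30 members it lay at the closest site in 7, with a median at site 3 from the end and a furthest at site 9. The counts of these 30 rest on few tags and often on inner sites.

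Ribosomal protein genes have many processed copies in a rodent genome, and a 21-base tag can also belong to such a copy or to a second gene entry, so every assignment here is that of the authors. The description of the Rps13 row in the files names a lipid kinase although its ontology terms are those of a small ribosomal subunit, and that of the Rps29 row names ribonucleotide reductase. Another 75 rows carried other symbols or a UniGene-type identifier alone and were described in the files as cytosolic ribosomal proteins. They are no members, and are given only where they bear on a member.

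The members held a smaller share of the gene counts on each later day. The share was 7.41% (95% exact binomial interval 7.37 to 7.44%) on day 0, 5.55% (5.52 to 5.59%) on day 3, 5.83% (5.80 to 5.86%) on day 6 and 4.67% (4.64 to 4.70%) on day 9. Day 0 was the highest library and day 9 the lowest, with day 3 and day 6 close together. Intervals in this report cover counting error only, and tags amplified without molecular identifiers are not independent molecules. After scaling the libraries with the TMM method of edgeR, the members' summed counts were 1.35-fold lower on day 3 than on day 0, 1.24-fold lower on day 6 and 1.53-fold lower on day 9. Without Rps26, the member with the most counts, the sums were 1.31-, 1.22- and 1.49-fold lower. In whole skin, fewer cells of a type and less RNA per cell cannot be told apart.

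In summed counts the small subunit members differed more than the large subunit members. The small subunit share was 3.70% on day 0, 2.52% on day 3, 2.71% on day 6 and 2.04% on day 9. Large subunit members began at nearly the same 3.71% on day 0 and held 3.04%, 3.12% and 2.63% on days 3, 6 and 9. The scaled sum on day 9 was 1.75-fold lower than on day 0 for the small subunit (95% interval 1.73 to 1.77) and 1.37-fold lower for the large subunit (1.35 to 1.38). These sums are carried by the most counted members. Among members with at least 500 counts in every library, medians to day 0 kept this order, though by little on day 6. They were -0.67, -0.41 and -0.90 for 11 small subunit members on days 3, 6 and 9. For 13 large subunit members they were -0.29, -0.40 and -0.62. Medians that include members with fewer counts kept the order on day 3 only. The median log2 ratio to day 0 of the 17 small subunit members that averaged 10 counts was -0.39 on day 3, 0.09 on day 6 and -0.56 on day 9. For 27 large subunit members it was -0.30, -0.40 and -0.66, lower than that of the small subunit on days 6 and 9. With 1 library for each day, whether this gap exceeds the spread between animals was not tested.

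**Figure D1:**
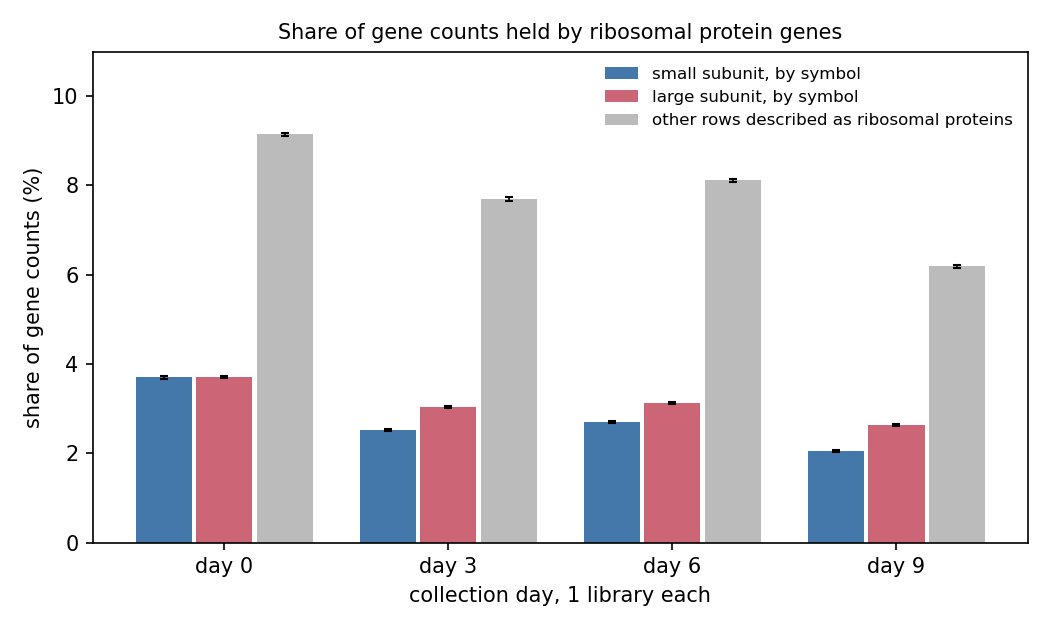
Share of gene counts (y axis, %) held by small subunit members, large subunit members and the other rows described as ribosomal proteins in the 4 libraries (x axis, collection day), with exact 95% binomial intervals. All 3 sets were highest on day 0 and lowest on day 9, and the small subunit members began level with the large subunit members (3.70 and 3.71%) and ended below them (2.04 and 2.63%).

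Single members were compared by size: the scaled counts had to differ by 2-fold or more, the higher library had to hold 50 counts or more, and the counting interval had to leave out 1. "Rose" and "fell" are used for members past this rule. Shares of all genes past this rule, here and below, are likewise taken over genes with 50 counts or more in the higher library. Against day 0 these were 5342 genes on day 3, 5296 on day 6 and 5345 on day 9. On day 3 against day 0, 5 of the 37 members with enough counts fell and 1 rose. Beside them, 7.88% of all genes were lower by this rule and 8.54% were higher. On day 6 the numbers were 5 lower and 2 higher of 37, beside 13.1% lower and 7.48% higher over all genes. By day 9 there were 9 lower and 3 higher of 37, beside 10.4% lower and 10.7% higher. As shares of the 37, the members called lower were 13.5% on day 3, 13.5% on day 6 and 24.3% on day 9, so that day 6 was level with all genes and day 9 stood furthest above them.

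The shift of the whole set was clearer in its median than in its extremes. Over members that averaged 10 counts or more in the 2 libraries compared, the median log2 ratio to day 0 was -0.30 on day 3 (30 of 44 below 0), -0.22 on day 6 (26 of 44) and -0.64 on day 9 (37 of 44). The same medians over all genes were -0.02, 0.02 and -0.01. With a threshold of 1.5-fold in place of 2, 12 of 37 members (32.4%) were lower and 2 higher on day 3, beside 20.1% and 17.8% of all genes. On day 6 they were 12 and 3, beside 22.2% and 18.1%. On day 9 they were 21 (56.8%) and 3, beside 21.3% and 21.5%.

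**Figure D2:**
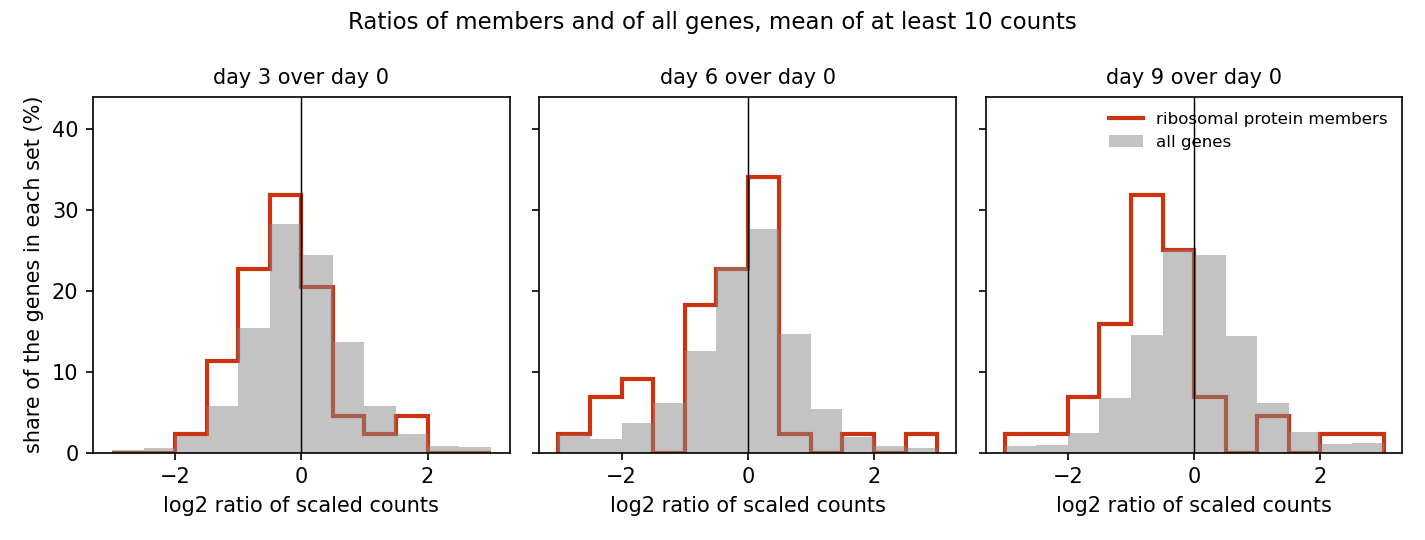
Share of genes (y axis, %) in bins of the log2 ratio of scaled counts to day 0 (x axis) on days 3, 6 and 9, for members (red line) and all genes (grey), all averaging 10 counts or more. Values beyond the axis are held in the outer bins. The members' bulk lies left of 0 on day 9, where 37 of 44 were below 0, against 4973 of 9895 over all genes.

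Day 6 differed little from day 3 over the set as a whole, with a median log2 ratio of 0.03 over 43 members (0.02 over all genes). Of 36 members 1 rose and 2 fell, beside 2.88% and 6.74% of all genes. The step to day 9 was larger. Its median log2 ratio to day 6 was -0.45 over 41 members and -0.00 over all genes, and 27 of the 41 were below 0. At 2-fold only 2 members rose and 1 fell of 36, beside 10% and 4.37% of all genes.

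Among the 24 members with at least 500 counts in every library, the largest falls from day 0 were in the small subunit. Rps13, a protein of the small subunit, had 3556, 1282, 622 and 1170 counts on days 0, 3, 6 and 9. It was lowest on day 6 and fell on each later day, 2.79-fold on day 3 (95% interval 2.61 to 2.97), 5.55-fold on day 6 (5.10 to 6.06) and 2.89-fold on day 9 (2.71 to 3.10). Rps19, whose human counterpart was the first gene linked to the inherited anaemia named after Diamond and Blackfan, had nearly the same course with 2936, 1286, 686 and 1070 counts. It fell 2.29-fold on day 3, 4.15-fold on day 6 and 2.61-fold on day 9.

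Rps27, a zinc-binding protein of the small subunit, had 9292, 5049, 2458 and 4658 counts on days 0, 3, 6 and 9. It fell 3.67-fold on day 6 (3.51 to 3.84), and its ratios of 1.85-fold lower on day 3 and 1.90-fold lower on day 9 lay just inside the 2-fold line. These 3 genes shared the lowest point on day 6 and higher counts on day 9 than on day 6, by 1.92-fold for Rps13, 1.59-fold for Rps19 and 1.93-fold for Rps27.

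Rps7 and Rps14 were lowest on day 9 or day 3 and higher on day 6. Rps7, which can bind MDM2, had 3173, 1622, 2317 and 1220 counts and fell 2.48-fold on day 9 (2.32 to 2.65). On day 3 Rps7 was 1.97-fold lower, on the edge of the rule. Rps14, the gene of the small subunit that is lost with part of a human chromosome in a form of myelodysplasia, had far fewer counts, 84, 32, 51 and 34. It fell 2.61-fold on day 3 (1.74 to 4.10) and 2.33-fold on day 9 (1.56 to 3.62), with intervals widened by these low counts.

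Rps26, which lies where messenger RNA leaves the small subunit, had 22781, 14389, 16327 and 11624 counts. Its ratios were 1.59-fold lower on day 3, 1.36-fold lower on day 6 and 1.87-fold lower on day 9. Rps20 had 6210, 4519, 6844 and 4023 counts, so that day 6 was 1.13-fold above day 0 while day 9 was 1.47-fold lower. Rps23, a protein of the decoding centre, had 6609, 6433, 6963 and 4975 counts, nearly level over the first 3 libraries, and was 1.27-fold lower on day 9. All 11 small subunit members with at least 500 counts in every library were below their day 0 level on day 9, with a median log2 ratio of -0.90. On day 6 only 7 of these 11 were below it, with a median of -0.41.

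**Figure D3:**
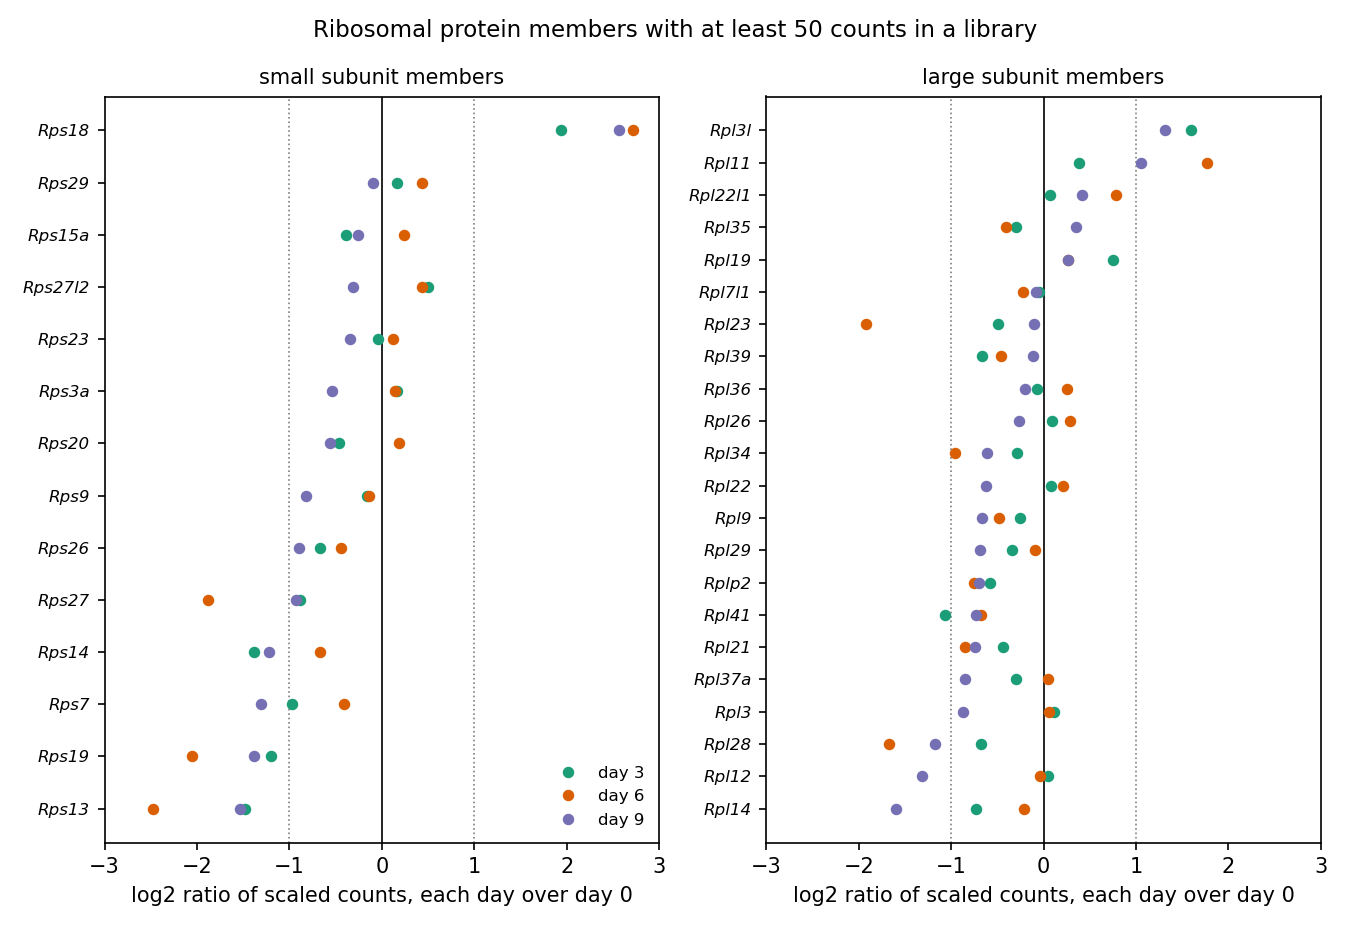
Log2 ratio of scaled counts to day 0 (x axis) on days 3, 6 and 9 for 14 small subunit and 22 large subunit members with at least 50 counts in a library (y axis, ordered by the day 9 ratio); dotted lines mark 2-fold. Rps13, Rps19, Rps27, Rpl23 and Rpl28 are lowest on day 6, and Rps18, Rpl3l and Rpl11 stand to the right on day 9. Rpl3l has no point for day 6, where it was at 0.

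Among large subunit members, Rpl28, Rpl12 and Rpl14 fell on day 9, all with low counts. Rpl12, at the base of the stalk, had 74, 77, 70 and 28 counts on days 0, 3, 6 and 9 and fell 2.49-fold on day 9 (1.61 to 4.04). Its fall came late, since days 0, 3 and 6 were level. Rpl28 had 67, 42, 20 and 28 counts and fell 3.20-fold on day 6 and 2.26-fold on day 9. Rpl14 had 55, 33, 46 and 17 counts and fell 3.02-fold on day 9 (1.76 to 5.66).

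Rpl41, the smallest protein of the ribosome, had 7747, 3724, 4710 and 4429 counts and was the only large subunit member that fell on day 3 (2.09-fold, 2.01 to 2.17). Rpl23, which can bind MDM2, had 126, 90, 32 and 112 counts. It was low on day 6 alone, 3.78-fold lower than on day 0 (2.58 to 5.83), and its day 9 count was 3.53-fold higher than its day 6 count (2.39 to 5.46). Rpl34 had 2639, 2170, 1316 and 1646 counts, and its day 6 ratio of 1.95-fold lower lay on the edge of the rule. Rpl3, which lies close to the site where peptide bonds form, had 4762, 5181, 4804 and 2476 counts. It was level over the first 3 libraries and 1.83-fold lower on day 9 (1.75 to 1.92). Rpl22 was also lowest on day 9, with 5184, 5491, 5835 and 3217 counts and a day 9 ratio of 1.54-fold lower.

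Members of the tunnel through which the new protein leaves did not move alike. Rpl39, in the wall of that tunnel, had 11203, 7085, 7908 and 9854 counts, with day 3 lowest (1.59-fold lower) and day 9 only 1.08-fold lower than day 0. Rpl35, at its exit, had 2617, 2137, 1922 and 3168 counts, and day 9 was the highest library (1.27-fold higher than day 0). Of the 13 large subunit members with at least 500 counts in every library, 10 were below their day 0 level on day 9, with a median log2 ratio of -0.62. Those above it were Rpl11, Rpl19 and Rpl35.

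The stalk, a flexible arm of the large subunit that recruits elongation factors, is made of P0, P1 and P2. Rplp2 had 8419, 5679, 4844 and 4934 counts on days 0, 3, 6 and 9, and was 1.49-, 1.69- and 1.63-fold lower on the 3 later days, short of the rule each time. Rplp0 had only 29, 12, 5 and 3 counts, too few for the rule, and its day 9 ratio of 8.03-fold lower had an interval of 2.85 to 47.2. No member row stood for P1, but rows described as P1 summed to 58862, 48694, 51430 and 39377 counts. This was the most counted ribosomal protein of all, and its day 9 level was 1.42-fold lower than on day 0 (1.41 to 1.44).

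A few members were higher after irradiation. Rpl11, which with Rpl5 and a small ribosomal RNA forms the particle that can hold MDM2, had 1626, 2132, 5391 and 3217 counts on days 0, 3, 6 and 9. It rose 3.41-fold on day 6 (3.23 to 3.61) and 2.08-fold on day 9 (1.96 to 2.21). The day 6 level was also 2.62-fold above day 3 (2.49 to 2.75), so that Rpl11 peaked in the library in which Rps13, Rps19 and Rps27 were lowest. Rpl5, the partner of Rpl11, had no member row. The 1 row described as L5 held 44, 76, 68 and 30 counts and met the rule in no comparison with day 0.

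Rpl19, which takes part in a bridge between the subunits, had 2845, 4820, 3307 and 3265 counts. It was 1.69-fold higher on day 3 than on day 0 (1.61 to 1.77) and 1.20-fold higher on day 9. Rps18 had 9, 36, 60 and 53 counts and rose 6.56-fold on day 6 (3.38 to 15.7) and 5.91-fold on day 9 (3.02 to 14.3). This row, however, held 26.6% of the counts described as S18. Over both S18 rows the counts were 171, 208, 120 and 95, and the day 6 and day 9 levels were 1.38- and 1.71-fold lower than day 0.

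**Figure D4:**
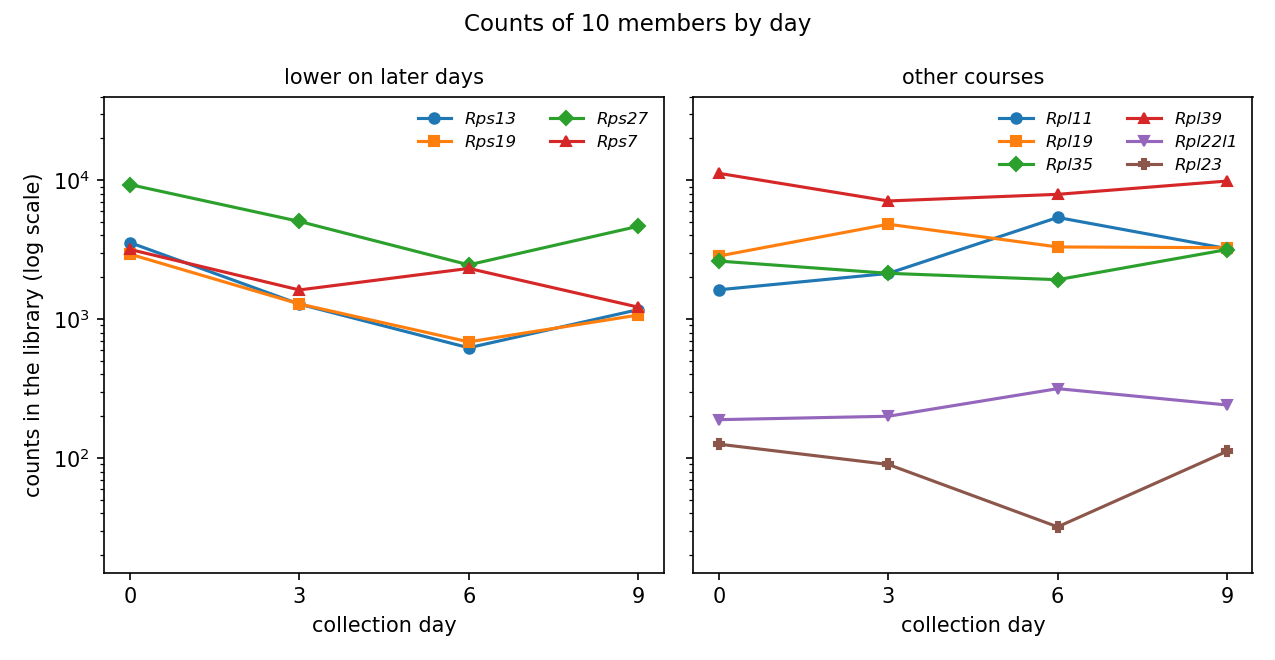
Counts in each library (y axis, log scale) of 10 members against collection day (x axis). In the left panel Rps13 and Rps19 run together, with 622 and 686 counts on day 6, and Rps7 ends at 1220 on day 9. In the right panel Rpl11 peaks at 5391 counts on day 6, where Rpl23 has its minimum of 32.

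The paralogs are thought to give ribosomes of particular tissues another composition. Rpl3l, which replaces Rpl3 in skeletal and heart muscle, had 39, 119, 0 and 93 counts on days 0, 3, 6 and 9. It rose 3.01-fold on day 3 (2.10 to 4.48) and 2.48-fold on day 9 (1.70 to 3.74). On day 6 it was at 0, which with a floor of 3 counts for that library is at least 38.3-fold lower than day 3 and at least 12.6-fold lower than day 0. Day 9 was at least 31.6-fold higher than day 6. Skeletal muscle markers moved with it: the 11 listed of 12 summed to 4757, 10023, 8 and 8909 counts, and 10 of them were at 0 on day 6. Their part in the Rpl3l counts was not tested. Setting Rpl3l at its bound left the members' median on day 6 at -0.22.

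Rpl22l1, which in mouse is held down by Rpl22, had 189, 200, 316 and 241 counts. It was 1.72-fold higher on day 6 (1.43 to 2.07) and 1.34-fold higher on day 9 (1.10 to 1.63), while Rpl22 was 1.16-fold higher and 1.54-fold lower. Rpl7l1, a nucleolar relative of Rpl7, had 101, 98, 84 and 91 counts, and each of its 3 ratios to day 0 had an interval that included 1. Rps27l2 had 76, 108, 100 and 58 counts, and its day 9 ratio of 1.25-fold lower had an interval of 0.875 to 1.79. Rpl39l was seen 2 times in 1 library.

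A list of ribosomal proteins reported to bind MDM2 had 11 members among the 54, 10 of them with enough counts for a median. Their median log2 ratio to day 0 was -0.48 on day 3, -0.16 on day 6 and -0.41 on day 9 (-0.30, -0.22 and -0.64 over all members). Of the 8 with enough counts for the rule, 0 rose and 1 fell on day 3 (Rps14), 1 rose and 2 fell on day 6 (Rpl11 up, Rps27 and Rpl23 down), and 1 rose and 2 fell on day 9 (Rpl11 up, Rps7 and Rps14 down). Over all genes 8.54, 7.48 and 10.7% rose and 7.88, 13.1 and 10.4% fell on these days, and with 8 genes such counts are too small to set the list apart. Rpl26, which can also bind the messenger RNA of p53, had 5868, 6265, 6923 and 4652 counts, and was 1.21-fold higher on day 6 and 1.20-fold lower on day 9. Rps3 had 13, 25, 18 and 12 counts.

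The 75 other rows held more counts than the members did, 9.14, 7.70, 8.11 and 6.19% of the gene counts on days 0, 3, 6 and 9. Together with the members they made up 16.6% on day 0, 13.2% on day 3, 13.9% on day 6 and 10.9% on day 9. The median log2 ratio of these rows to day 0 was -0.10 on day 3, 0.01 on day 6 and -0.50 on day 9, so that day 9 was again the lowest library. By the rule 2 of 45, 7 of 45 and 7 of 42 rows fell on days 3, 6 and 9 and 1 rose on each, beside 7.88, 13.1 and 10.4% of all genes that fell and 8.54, 7.48 and 10.7% that rose. The 75 proteins seen through either kind of row comprised 54 with a member row and 21 without one.

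Summing all rows of a protein changed the call of 4 members. There were 42 members that held at least 90% of the counts described as their protein and 11 that held under 50%, 7 of them under 1%. The Rpl18 row had 5, 0, 0 and 2 counts, whereas both L18 rows summed to 5862, 2507, 2487 and 2098 counts and fell 2.35-, 2.29- and 2.66-fold on days 3, 6 and 9. The 4 rows of L27, in which the Rpl27 row had at most 3 counts, fell 2.59-fold on day 6. Rps14 with its second row was 1.98-fold lower on day 3 and no longer past the rule, and Rps18 lost its rise as given above. The rows of S29 summed to 34626, 36996, 44334 and 32474 counts, 1.32-fold higher on day 6 than on day 0 (1.30 to 1.34), and the member row held 0.137% of them.

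Among proteins without a member row, SA, the laminin receptor precursor that is also part of the small subunit, summed to 9973, 4902, 5252 and 4648 counts and fell 2.04-fold on both day 3 and day 9. L13 summed to 8175, 5496, 2814 and 3221 counts and fell 2.82-fold on day 6 and 2.42-fold on day 9. L6 had 4441, 2453, 1020 and 2161 counts and fell 4.23-fold on day 6 (3.95 to 4.53), with a minimum on that day as in Rps13, Rps19 and Rps27. L38 had 165, 242, 331 and 241 counts and rose 2.06-fold on day 6.

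A member's tags from different sites did not always move alike. For 16 members there were at least 60 tag copies, over the 4 libraries, both at the most counted CATG site and at other sites. The 2 ratios to day 0 had non-overlapping counting intervals in 7 on day 3, 10 on day 6 and 6 on day 9. The same was not counted over all genes, so whether members differ from other genes in this was not tested. At Rps27 the most counted site had 9234, 4987, 2393 and 4620 copies on days 0, 3, 6 and 9, and its day 6 level was 3.75-fold lower than day 0 (3.58 to 3.92). The other Rps27 site had 58, 62, 65 and 38 copies, and day 6 was 1.15-fold higher (0.797 to 1.67). For Rpl11 the most counted site had 1564, 2092, 5336 and 3184 copies and the other site 62, 40, 55 and 33. The Rpl11 rise was thus at 1 site, 3.51-fold on day 6 (3.32 to 3.72), beside a ratio of 1.09-fold lower (0.749 to 1.60) at the other.

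The 2 main tags of Rpl36, a protein of the large subunit, moved in opposite directions within a nearly level sum of 221, 211, 255 and 183 counts. Both are shown with the CATG site in capitals.
Rpl36, second site from the 3′ end: CATGgagctgctcaaggtgtc
Rpl36, first site from the 3′ end: CATGcggaaggcggcggccaa
The tag at the second site had 192, 106, 127 and 65 copies and that at the first site 29, 98, 117 and 118. By site, with tags of lower copy included, day 9 was 2.80-fold lower than day 0 at the second site (2.11 to 3.79) and 4.22-fold higher at the other sites (2.83 to 6.65). The Rpl22 site closest to the 3′ end had 5100, 5426, 5816 and 3193 copies, whereas its other sites fell to 19 copies on day 6 and 24 on day 9, against 84 on day 0. Which transcript or genomic copy the minor tags come from was not tested.

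**Figure D5:**
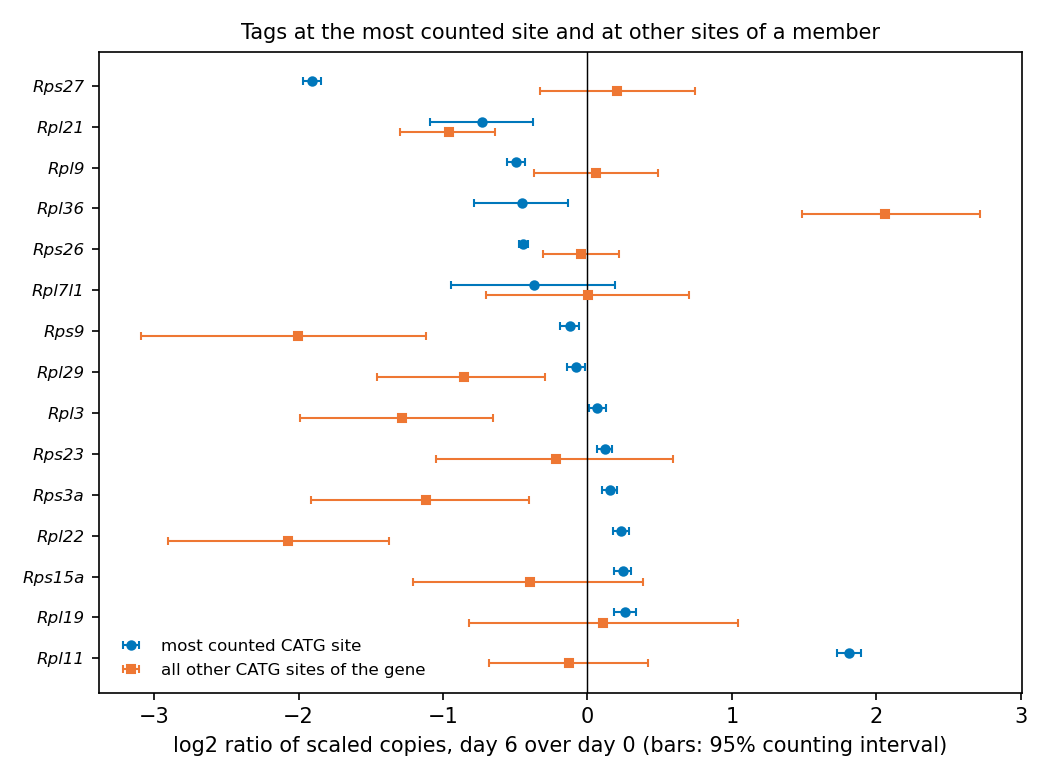
Log2 ratio of scaled tag copies, day 6 over day 0 (x axis), at the most counted CATG site (circles) and at all other sites (squares) of 15 members (y axis), with 95% counting intervals. Rps27, Rpl11, Rpl22 and Rpl36 show the widest gaps: 3.75-fold lower beside 1.15-fold higher at Rps27, and 3.51-fold higher beside 1.09-fold lower at Rpl11.

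Tags 1 base away from a member's main tag were rare except at Rps26. There the tag with the substitution A6T, counted from 1 at the first base of the tag, held 3.17% of the pair on day 0 (2.95 to 3.41%), 2.42% on day 3, 2.00% on day 6 and 2.99% on day 9. The differing base is in capitals.
Rps26, main tag: catggAaaaataaaactgaag
Rps26, variant tag: catggTaaaataaaactgaag
At Rps15a the same kind of variant had 1.05% of the main tag's copies, and at the other members whose main tag had at least 2000 copies over the 4 libraries the commonest variant had at most 0.34%. Whether the Rps26 variant is a second gene copy, an allele or a reading error was not tested.

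The start of the transcript was looked up for the members in the RefSeq promoter table (assembly GRCr8), which held 40 of the 54. A TOP start was taken as a C at the annotated start followed by at least 4 bases that are each C or T, read on the gene's own strand. It was found in 17 of 40 members (42.5%) and in 881 of all 33469 promoters (2.63%). The windows run from 10 bases before to 20 bases from the start on, with the unbroken pyrimidine run in capitals, and are shown for 5 members with such a start and for Rpl11 and Rpl3l, where no such run begins at the annotated base.
Rps27, chr2:177964587-177964616, minus strand: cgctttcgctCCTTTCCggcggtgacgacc
Rps26, chr7:1643385-1643414, minus strand: ccgccgggtcCTCTTTCgagtcttggctcc
Rps7, chr6:50999426-50999455, minus strand: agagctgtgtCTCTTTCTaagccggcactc
Rpl22, chr5:168117951-168117980, plus strand: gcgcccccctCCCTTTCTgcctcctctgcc
Rpl19, chr10:83519054-83519083, plus strand: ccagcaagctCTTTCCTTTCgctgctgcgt
Rpl11, chr5:153560783-153560812, minus strand: cttgaagcttgtttggtgctggggagcatc
Rpl3l, chr10:14258436-14258465, plus strand: ctggtgcctggtggggaggtcccttcctaa
The annotated base can lie some bases from the start used in skin, so a window without the run says only that these letters are not there. Members with the TOP start had median log2 ratios to day 0 of -0.67, -0.44 and -0.66 on days 3, 6 and 9, and members with another start -0.07, -0.09 and -0.34. Both directions occurred among the printed windows: Rps27, Rps26 and Rps7 were below day 0 on each later day, while Rpl19, with a run of 10 pyrimidines, was above it on each. These medians describe 15 and 19 genes of the same libraries and were not tested.

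Other genes of the translation machinery were compared through lists. The other mRNAs known for a TOP start, mostly elongation and initiation factors, had median log2 ratios to day 0 of -0.45, -0.35 and -0.38 on days 3, 6 and 9, and 11 of 14, 11 of 14 and 11 of 13 were below 0. At 2-fold 0, 1 and 3 of 13 fell and 0 rose. The shares of all genes, here and for the lists that follow, were 7.88, 13.1 and 10.4% lower and 8.54, 7.48 and 10.7% higher on days 3, 6 and 9. Eif3e, a subunit of the initiation factor eIF3, had 1002, 685, 319 and 667 counts and fell 3.05-fold on day 6 (2.69 to 3.47). Eif3f, another subunit, had 2754, 1593, 1492 and 981 counts and fell 2.67-fold on day 9. Eef2, the factor that moves the ribosome along the messenger, had 874, 500, 536 and 297 counts and fell 2.80-fold on day 9. Gnb2l1, the gene of the small subunit scaffold RACK1, had 9278, 6328, 6365 and 3875 counts and fell 2.28-fold on day 9 (2.20 to 2.37). Eef1b2, an exchange factor subunit, went the other way, with 2648, 4027, 4546 and 3189 counts and a day 6 ratio of 1.77-fold higher.

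Genes of ribosome assembly in the nucleolus had medians of -0.48, -0.19 and -0.27 on days 3, 6 and 9 over 28 genes, with 25, 20 and 19 of them below 0. By the rule 3 of 21 fell and 0 rose on day 3, 6 of 22 fell and 1 rose on day 6, and 4 of 23 fell and 1 rose on day 9. Ncl, the gene of nucleolin, had 495, 197, 188 and 218 counts and fell 2.52-, 2.55- and 2.16-fold. Imp3, a protein of the complex that processes small subunit RNA, had 61, 32, 8 and 28 counts and fell 7.03-fold on day 6 (3.53 to 17.9) and 2.06-fold on day 9. Eif6, which keeps free large subunits from joining small ones, had 285, 77, 51 and 150 counts and fell 3.70-fold on day 3 and 5.38-fold on day 6. Ebna1bp2, whose yeast counterpart is needed to make the large subunit, rose 6.43-fold on day 6 and 7.06-fold on day 9, with 18, 17, 115 and 124 counts.

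The mitochondrial ribosomal proteins, which build another ribosome, stayed nearer to all genes, with medians of -0.05, -0.09 and -0.10 over 56, 57 and 56 genes. By the rule 3 of 45, 7 of 43 and 2 of 41 fell and 0 rose on days 3, 6 and 9. Mrpl35 had 76, 61, 20 and 52 counts and fell 3.62-fold on day 6, and Mrpl52 had 308, 148, 86 and 196 counts and fell 3.46-fold on that day. The RNA polymerase I list, which makes ribosomal RNA, had medians of -0.32, 0.00 and -0.09 over 9 genes, and Polr1c fell 2.02-fold on day 3 and 2.01-fold on day 9, with 89, 44, 52 and 42 counts. It was the only gene of this list called against day 0, of 4 genes with enough counts on day 3 and 5 on days 6 and 9. Ubtf, which opens the ribosomal RNA genes, had 81, 51, 50 and 55 counts and did not meet the rule. The regulators of TOP messengers had medians of 0.05, 0.08 and 0.29. Of these 0 of 10 were called on day 3 and 0 of 9 on day 6, while 3 of 11 rose and 1 fell on day 9. In that list Sesn2, a stress-induced brake on the growth kinase mTOR, rose 3.49-fold on day 9 (18, 41, 48 and 61 counts). Sesn2 was also 2.23-fold higher on day 3 (1.27 to 4.19) and 2.70-fold on day 6 (1.57 to 5.01). On those days it was not called because it had under 50 counts. Rps6kb1, the S6 kinase through which mTOR promotes growth, rose 2.11-fold (1.41 to 3.27; 36, 59, 47 and 73 counts). Tsc2, another brake, rose 2.01-fold, and Mtor itself fell 2.03-fold, with 56, 35, 44 and 26 counts. Ddit4 of the same list had more counts, 684, 978, 750 and 420, and did not meet the rule. It was 1.42-fold higher on day 3 and 1.55-fold lower on day 9 (1.37 to 1.76).

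Markers of the cell types in the skin also differed between the libraries and are given here beside the member values. The 7 dermal fibroblast markers summed to 22648, 105525, 78129 and 71755 counts on days 0, 3, 6 and 9, lowest on day 0, the library with the highest member share. The 5 listed basal keratinocyte markers were nearly level at 2536, 2511, 3069 and 2553 counts, and the 3 listed suprabasal markers had 35528, 28428, 49105 and 35478. The 6 proliferation markers summed to 426, 253, 670 and 280 counts, with the day 6 library highest. Macrophage markers had 740, 1541, 1259 and 1066 counts, and red blood cell markers 35, 1529, 104 and 598. Sweat gland markers had 471, 834, 121 and 521 counts, lowest on day 6, and adipocyte markers 367, 1343, 521 and 895. Skeletal muscle markers, given above with Rpl3l, had 4757, 10023, 8 and 8909 counts, also lowest on day 6. Mast cell markers had 232, 597, 304 and 361 counts and endothelial markers 141, 157, 246 and 155. T cell, B cell and neutrophil markers each summed to at most 10 counts in a library. The part of these differences in cell makeup in the member ratios was not tested.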

How the data were processed

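The data were 1 gene table and 1 tag list for each of 4 libraries. Gene values are whole-number counts, in which the authors added up the 21-base tags assigned to each gene, per the file headers, and tags seen fewer than 2 times are absent. The deposited column headed TPM holds CPM values, counts scaled by the authors to all tags seen at least 2 times and not by length. Rnor_6.0 is the assembly named per the submitters' processing notes. Aligner, mismatches allowed, strand handling and annotation were not given in the sources used here.

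Libraries were grouped by the day in their titles. Counts were scaled with TMM factors from edgeR 4.0.16 (R 4.3.3). Ratios used a prior count of 0.5, with exact 95% Clopper-Pearson intervals from both counts (scipy 1.17.1). For libraries at 0 the floor was 3 counts. No count test across samples was possible with 1 library a day. The size rule was checked on simulated counts that held counting error alone. That check therefore says nothing about spread between animals or from amplification. Named members were those past the 2-fold rule, the most counted, those nearest the 2-fold line and a fixed set of well-studied members. For related lists, up to 4 genes furthest from day 0 were named if a library held 50 or more. L13, L6, L38, S29, L18, L27, Rpl36, Rps15a, Rpl35, Eef1b2, Ddit4 and the tag comparisons were chosen after their values were seen. Results of 2 members are not reported here, but the counts, shares and medians over members include them. The members and lists were chosen with earlier results of these data known. Alternatives covered scaling, including DESeq2 1.42.0 size factors, count filters, fold, prior, interval, tags and members. Members were matched by gene ID to RefSeq's gene table (GRCr8), which held 51 of the 54, and its promoter table held windows for 40.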

Additional observations from a re-analysis of the deposited data

How the results depend on the processing

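Of 248 alternative values for the list medians, counts of members and shares, 183 stayed within their tolerance and 65 moved. The median on day 6 against day 3, near 0, changed sign with the authors' CPM plus 1, as given below. For single members, 534 of 545 ratios kept their direction and side of the rule. No paired analysis was possible because each day had 1 library, and for the same reason leave-one-out values do not exist. A wider choice of members was not run.

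Scaling by total gene counts, by totals less the 20 most abundant genes or the members, or by DESeq2 size factors moved no median beyond its tolerance of under 0.1 on the log2 scale. Members lower on day 6 against day 3 numbered 2, but 4 with total gene counts, totals less the 20 most abundant genes, DESeq2 size factors, totals without the members, totals without all rows described as ribosomal proteins, or the authors' deposited CPM plus 1, since Rps13 and Rps27 lie at the 2-fold line there. The last of these scalings on totals moved the median of all genes on day 9 against day 0 to -0.15 and that of the members to -0.78. Totals without the members put Rpl11 on day 9 at 0.96 on the log2 scale, under the rule. With the authors' CPM plus 1 the median log2 ratio was -0.19 on day 3 against day 0 and -0.10 on day 6 against day 3, on the other side of 0 from the value of 0.03 given above.

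Count filters moved the calls more. With at least 10 counts, 2 members were higher on day 3, 8 lower on day 6, and 4 higher and 2 lower on day 9 against day 6. No filter gave the same counts, and a median of -0.27 on day 9 against day 6. With at least 200 counts, 0 were higher on day 3, 1 higher and 3 lower on day 6, 1 higher and 5 lower on day 9, 0 lower on day 6 against day 3, and 0 higher and 0 lower on day 9 against day 6. A 1.5-fold threshold gave 2 higher and 12 lower on day 3, 12 lower on day 6 and 21 lower on day 9. The shares of all genes for these are given above. On day 6 against day 3 it gave 7 higher and 6 lower of 36 (19.4 and 16.7%), beside 10.6 and 14.2% of all genes. On day 9 against day 6 it gave 6 higher and 12 lower of 36 (16.7 and 33.3%), beside 18.1 and 14.8%. For the other filters and settings of this paragraph, and for the scalings above, no shares of all genes are given. Those counts describe the members alone. The most abundant tag alone gave a day 6 median of -0.41 and 2 members lower on day 9 against day 6. Without the paralogs, 0 were higher on day 3, the median on day 6 against day 3 was 0.14 with 1 member lower, and 1 was higher on day 9 against day 6.

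The following settings were chosen after seeing the data. With the other rows described as ribosomal proteins added, the medians were -0.19 on day 3 and -0.077 on day 6. In this larger set 2 rows were higher on day 3, 12 lower on day 6 and 16 lower on day 9. Enough counts were held by 37 members on each of these days and by 45, 45 and 42 other rows. Over all genes 8.54% were higher on day 3, and 13.1 and 10.4% lower on days 6 and 9. On day 6 against day 3, 5 were lower (36 members and 46 other rows with enough counts), beside 6.74% of all genes. On day 9 against day 6, 4 were higher and 5 lower (36 members and 44 other rows), beside 10 and 4.37%. The 24 members of at least 500 counts in every library had a day 6 median of -0.41. Of these 24, 0 were higher and 4 lower on day 3, 1 higher and 3 lower on day 6, and 1 higher and 5 lower on day 9. Over all genes with at least 50 counts, 8.54, 7.48 and 10.7% were higher and 7.88, 13.1 and 10.4% lower on these days. On day 6 against day 3, 0 of the 24 were lower, beside 6.74%. On day 9 against day 6, 0 were called in both directions, beside 10% higher and 4.37% lower. The shares became 4.22, 3.37, 3.33 and 2.74% on days 0, 3, 6 and 9 over all tags seen at least 2 times, and 9.39, 7.19, 7.68 and 6.07% without the 20 most abundant genes that are no members. The cause of these differences was not tested, apart from the filters and thresholds, which change how many members are counted. Calls near the 2-fold line and under 200 counts are thus the least certain, and the spread between animals is unknown.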
